A study of Mus musculus with 6 samples.

Results

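The 9 genes described here form the sterol-sensing machinery of the sterol regulatory element-binding proteins (SREBPs) in mouse liver: the factors Srebf1 and Srebf2, the escort Scap, the retention proteins Insig1 and Insig2, the site proteases Mbtps1 and Mbtps2, and 2 sterol-regulated genes that act on cholesterol handling, Stard4 and Mylip. They were chosen by function, through every probe set annotated to one of them and to no other gene, which gave 17 probe sets for 9 of the 18193 genes so annotated. Liver RNA came from 8-week-old male mice on a mixed background that were fed standard chow and then fasted for 24 h before sampling. Mig-6 f/f livers, in which both alleles of Mig-6 (gene Errfi1, a feedback inhibitor of epidermal growth factor receptors) carry flanking recombination sites, gave 3 Affymetrix arrays, and Mig-6 d/d livers, in which the gene is deleted, gave the other 3. The labels give neither the Cre driver, nor the cells it acts in, nor whether the arrays of a group come from different animals. The p-values then reflect only the spread between these samples, which may be technical.

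SREBPs are made as membrane proteins of the endoplasmic reticulum, where SCAP binds them. When membrane cholesterol is high, SCAP is held there by INSIG proteins. When it falls, SCAP carries the SREBP to the Golgi, and the site-1 protease (Mbtps1) and the site-2 protease (Mbtps2) release the part that enters the nucleus. SREBP-2 mainly drives cholesterol synthesis and uptake genes, and SREBP-1c, the main liver product of Srebf1, drives fatty acid synthesis. Insig1 is itself an SREBP target, while liver Insig2 has a transcript that insulin represses and fasting raises. Stard4 carries sterols between membranes and is an SREBP-2 target, and Mylip encodes IDOL, an LXR-induced ubiquitin ligase that limits cholesterol uptake.

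The RefSeq promoter windows (build GRCm38.p6) of the factors and the INSIG genes are shown, as these 4 genes are compared in pairs below. Each is the run of 250 bases before an annotated start site, 5′ to 3′ on the strand of the gene. Capitals mark matches, on either strand, to TCACCCCA (the core of the classical sterol response element), CACGTG (E-box), CCAAT and an LXR response element. That element is known from the Srebf1 promoter, and its letters stand in capitals in the Srebf1 window shown. Windows were found for 8 of the 9 genes, all but Stard4. The Insig1 window is chr5:28071162-28071411 on the + strand. The 2 Insig2 windows shown, of 3, are chr1:121332590-121332839 and chr1:121328025-121328274 on the - strand. The Srebf1 window shown, also of 3, is chr11:60210472-60210721 on the - strand, and the Srebf2 window is chr15:82147019-82147268 on the + strand.
Insig1: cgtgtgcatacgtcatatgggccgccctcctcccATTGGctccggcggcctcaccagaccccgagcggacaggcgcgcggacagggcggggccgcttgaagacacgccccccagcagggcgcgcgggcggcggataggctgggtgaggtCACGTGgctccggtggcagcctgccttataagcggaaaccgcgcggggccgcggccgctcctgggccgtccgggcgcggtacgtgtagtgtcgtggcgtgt
Insig2, upstream start: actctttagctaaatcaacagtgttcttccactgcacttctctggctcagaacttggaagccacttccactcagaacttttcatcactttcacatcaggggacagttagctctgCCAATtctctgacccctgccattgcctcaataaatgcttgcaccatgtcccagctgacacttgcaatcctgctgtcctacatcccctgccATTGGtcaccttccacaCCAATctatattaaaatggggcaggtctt
Insig2, middle start: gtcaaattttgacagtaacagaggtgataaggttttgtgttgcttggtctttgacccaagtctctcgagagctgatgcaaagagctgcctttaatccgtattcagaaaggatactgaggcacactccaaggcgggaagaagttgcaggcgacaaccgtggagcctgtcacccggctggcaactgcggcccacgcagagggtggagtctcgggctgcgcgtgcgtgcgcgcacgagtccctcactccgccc
Srebf1: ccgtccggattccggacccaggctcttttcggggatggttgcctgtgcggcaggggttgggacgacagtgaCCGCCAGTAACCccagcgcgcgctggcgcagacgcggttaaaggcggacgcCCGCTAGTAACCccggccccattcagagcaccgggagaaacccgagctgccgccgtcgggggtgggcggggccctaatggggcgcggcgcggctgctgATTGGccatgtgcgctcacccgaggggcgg
Srebf2: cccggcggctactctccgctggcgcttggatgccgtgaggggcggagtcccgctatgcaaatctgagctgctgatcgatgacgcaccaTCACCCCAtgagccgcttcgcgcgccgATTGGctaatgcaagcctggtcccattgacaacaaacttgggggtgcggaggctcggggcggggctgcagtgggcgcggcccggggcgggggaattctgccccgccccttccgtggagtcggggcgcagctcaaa

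In the 13 windows of the 8 genes TCACCCCA was found in that of Srebf2 only, 154 bases before the start site, and 1.36% of 32536 distinct windows of the same length hold it. The LXR element was found 2 times in the Srebf1 window shown, and in 2 of the 32536 windows, 0.00615%. As its letters are known from the Srebf1 promoter, the match there was foreseeable and its rarity elsewhere is no evidence. Other forms of LXR element were not searched, in Mylip or any other member. The Insig1 window holds 1 E-box, as does 1 window of Scap, against 6.04% of all windows. CCAAT, at 33.8% of windows the commonest of the marked motifs, was found in 6 of the 13 windows, from 5 members. It was found 3 times in the Mylip window and 3 times before the upstream start of Insig2. The windows before the other 2 starts of Insig2 hold none of the marked motifs. Also searched, on both strands and unmarked, were GGGCGG, held by windows of 7 members and 33.0% of all windows, GTAAACA, held by none of the members and 3.17% of all windows, and TCACNCCA, which overlaps TCACCCCA and was found in the same Srebf2 site only, against 3.65% of all windows. A match is a run of letters and not a measured binding site, and the probe sets do not tell which start a transcript used.

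Errfi1 read 5371, 5424 and 5686 in the f/f arrays and 68.0, 61.8 and 59.6 in the d/d arrays (deposited intensity), in the direction of the labels, with a log2 difference between genotypes of -6.10 ± 0.10 and an adjusted p of 4.91e-08 (limma, adjusted by Benjamini and Hochberg's method). A log2 difference is the mean of the d/d arrays less that of the f/f arrays, on log2(intensity + 16) values after quantile normalization, and is printed with limma's standard error (n = 3 per group). The added 16 makes it too small for dim genes. The hepatocyte markers tested, 9 of 10 listed, summed to intensities of 160291 to 166350 over the 6 arrays. Kupffer cell and macrophage markers lay lower in d/d for 11 of 12, with a median of -0.27, and their summed intensity was 3359 to 4605 in f/f and 2841 to 3641 in d/d, with no marker at 0. The most abundant of them, Cd5l, averaged 1031 and 811. Median differences were 0.03 for 10 endothelial markers, -0.06 for 10 stellate markers, 0.02 for 2 cholangiocyte markers and -0.11 for 8 lymphocyte and neutrophil markers. The summed intensity of the stellate markers was 3102 to 3446 in f/f and 2561 to 3084 in d/d, without overlap, with 6 markers lower and 4 higher. In whole liver, fewer cells of a type and less RNA per cell cannot be told apart. Among the 6 arrays, f/f replicate 3 stood apart, with 18S ribosomal control probe sets at a mean of 3807 against 218.0 to 455.2 elsewhere and a mean correlation of 0.963 with the other arrays against 0.978 to 0.981.

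No member reached an adjusted p of 0.05 by limma, with p-values adjusted by Benjamini and Hochberg's method over 13718 genes, of which 13, or 0.0948%, did. An unadjusted p under 0.05 (7.84% of all genes) was found for 3 of the 9 members. Of these, Insig2 and Insig1 were lower in d/d, as 3.07% of all genes were at that threshold, and Srebf1 was higher, as 4.77% were. The groups did not overlap for 2 members, where 14.7% of all genes met that condition: Insig2 lay lower (6.79% of all genes) and Srebf1 higher (7.9%). Of the 9 differences 4 were negative, against 53.5% over all genes, and 7 were when f/f replicate 3 was left out. The Kupffer cell markers and the stellate marker sum lay lower in d/d, as the INSIG genes did, and their part in that result was not tested. The median difference was 0.03 over the members and -0.01 over all genes tested. Over the single probe sets 0 of 17 passed the adjusted threshold, against 0.0744% of 34945, and 5 had an unadjusted p under 0.05 by limma, against 6.81%. Of the 17, 15 were above the limit for dim probe sets and 2, of Scap and Mbtps1, were below it. The probe sets of a gene share its transcripts and are not replicates. One further probe set, annotated to Yy2 and Mbtps2 together, was left out by the rule.

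**Figure D1:**
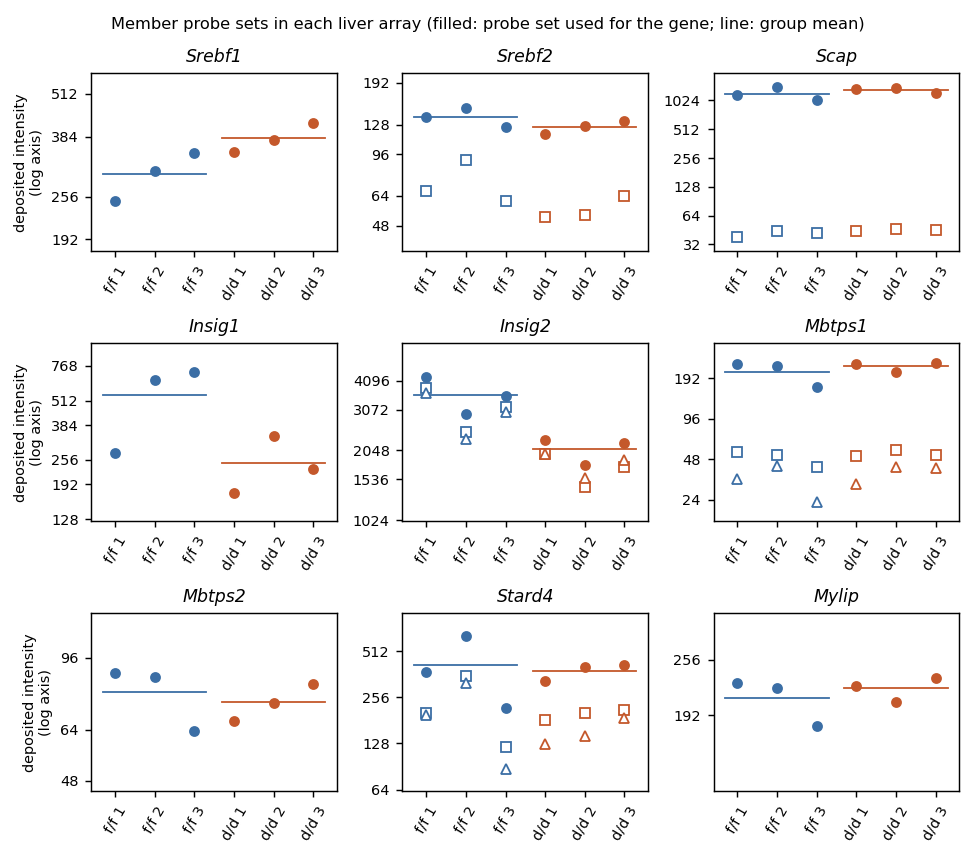
Deposited intensity (log axis) of the 17 member probe sets in each of the 3 f/f (blue) and 3 d/d (orange) arrays. Filled points mark the probe set used for the gene and lines its group means, and the Insig2 groups do not overlap on any of the 3 probe sets.

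Of the retention proteins, Insig2 showed the clearest separation. Its brightest probe set read 4236, 2926 and 3520.2 in f/f and 2260.3, 1763 and 2201 in d/d. Every d/d array lay below every f/f array. The mean went from 3561 ± 656 to 2075 ± 272 (SD, n = 3), a log2 difference of -0.74 ± 0.17 (95% interval -1.14 to -0.34), or 1.67 times lower, with an unadjusted p of 0.00269 and an adjusted p of 0.238 (limma with Benjamini-Hochberg adjustment). Only 154 of the 13718 genes had a smaller p. A two-sided exact permutation test over the 20 assignments of the arrays gave p = 0.1, the smallest that 3 against 3 allows.

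The other 2 probe sets of Insig2 also had groups that did not overlap, lower in d/d, where 6.28% of all probe sets did. The first of them read 3797, 2467 and 3158 in f/f and 1966, 1418 and 1739 in d/d, with -0.83 ± 0.18 on the log2 scale (adjusted p = 0.232, limma with Benjamini-Hochberg adjustment over all probe sets). The last one read 3603, 2283 and 3003 in f/f and 1969, 1561 and 1859 in d/d, a log2 difference of -0.66 ± 0.18 (adjusted p = 0.362 by the same limma fit with Benjamini-Hochberg adjustment). On each of the 3, f/f replicate 1 was the highest array and d/d replicate 2 the lowest. On the brightest probe set, leaving out f/f replicate 2 gave -0.89, leaving out f/f replicate 1 gave -0.60 and leaving out f/f replicate 3 gave -0.74. Its adjusted p lay between 0.0782, with array weights, and 0.794 over 16 alternatives (limma with Benjamini-Hochberg adjustment).

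Insig1, the INSIG gene that SREBPs induce, had a larger but less even difference. Its only probe set read 276.5, 651.9 and 716.1 in f/f and 174.5, 339.1 and 228.8 in d/d. The groups overlapped, since f/f replicate 1 read below d/d replicate 2. The means were 548 ± 237 and 247 ± 83.9 (SD, n = 3), and the log2 difference was -1.03 ± 0.35 (95% interval -1.83 to -0.22), with an unadjusted p of 0.0187 and an adjusted p of 0.486 (limma with Benjamini-Hochberg adjustment). Leaving out f/f replicate 1 gave -1.44, and leaving out f/f replicate 3, the array in which Insig1 was highest, gave -0.80. A two-sided exact permutation test gave p = 0.2.

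The 2 INSIG genes were ordered differently within the f/f group, with f/f replicate 1 lowest for Insig1 and highest for Insig2. The log2 value of Insig1 minus that of Insig2 was -3.85, -2.11 and -2.28 in f/f and -3.59, -2.30 and -3.22 in d/d. Its shift between genotypes was -0.29 (two-sided exact permutation p = 0.8), and 0.04 without f/f replicate 2. A difference in size between the Insig1 and the Insig2 shift was not detectable with 3 arrays per group.

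**Figure D2:**
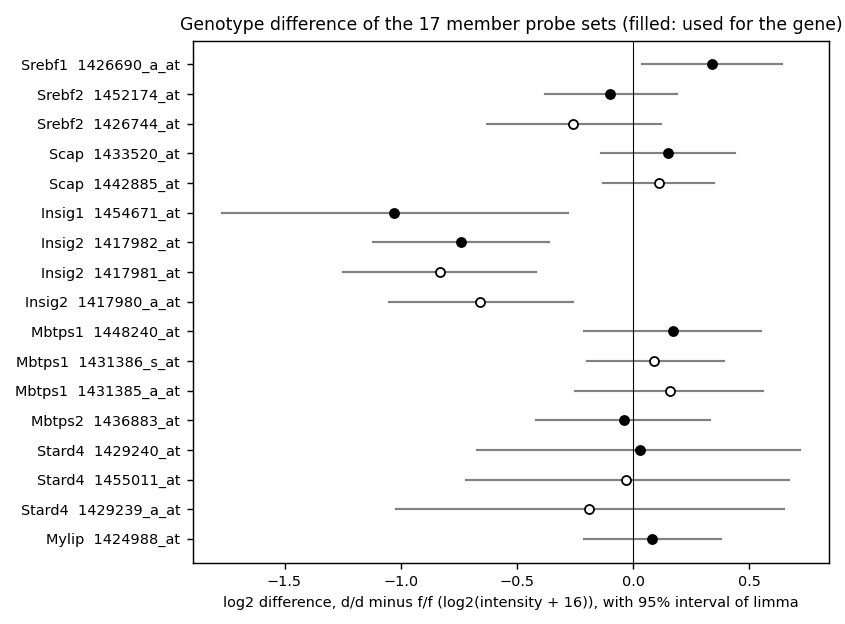
Log2 difference (d/d minus f/f) of each member probe set with its 95% interval from limma. Insig1 and the 3 probe sets of Insig2 have intervals below 0, that of Srebf1 lies above 0, and the other 12 span 0.

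Of the factors, Srebf1 lay higher in d/d. Its probe set read 248.0, 304.7 and 343.9 in f/f and 345.1, 376.2 and 420.7 in d/d. The groups did not overlap, but the highest f/f array, replicate 3, and the lowest d/d array nearly met. The means were 299 ± 48.2 and 381 ± 38.0 (SD, n = 3), a log2 difference of 0.34 ± 0.14 (95% interval 0.03 to 0.65) with an unadjusted p of 0.0361 and an adjusted p of 0.589 (limma with Benjamini-Hochberg adjustment). Leaving out f/f replicate 3 gave 0.44 and leaving out f/f replicate 1 gave 0.23. The annotation does not say whether the probe set reads the 1a or the 1c form.

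Srebf2 read 138.2, 150.6 and 125.3 in f/f and 117.3, 126.5 and 133.0 in d/d on the probe set used for the gene. The groups overlapped, and the log2 difference was -0.10 ± 0.13 (95% interval -0.39 to 0.20, limma with Benjamini-Hochberg adjustment, adjusted p = 0.891). Its dimmer probe set read 67.1, 90.5 and 61.1 in f/f and 52.3, 53.3 and 64.2 in d/d, with -0.26 ± 0.17. Leaving out f/f replicate 3 gave -0.21 and -0.41 on these 2 probe sets, and leaving out f/f replicate 2 gave -0.02 and -0.10.

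Srebf1 and Srebf2 were then compared within arrays. The log2 value of Srebf1 minus that of Srebf2 was 0.76, 0.93 and 1.44 in f/f and 1.45, 1.48 and 1.5 in d/d. All d/d arrays lay above all f/f arrays, by a narrow gap at f/f replicate 3, and the d/d arrays spread less (SD 0.022) than the f/f arrays (SD 0.356). The shift of 0.44 had a two-sided exact permutation p of 0.1, the smallest this design allows, and became 0.64 when f/f replicate 3 was left out and 0.29 when f/f replicate 1 was.

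Scap, the escort that both SREBPs need, read 1173, 1407 and 1031 in f/f and 1335, 1368 and 1228 in d/d. The groups overlapped, with a log2 difference of 0.15 ± 0.13 (95% interval -0.15 to 0.45). Leaving out f/f replicate 3 gave 0.04, and leaving out f/f replicate 2 gave 0.26. Its other probe set, below the dim limit, read 37.9 to 44.5 in f/f and 44.1 to 46.1 in d/d, with 0.11. Mbtps1, the protease of the first cleavage, read 243.7, 234.8 and 163.9 in f/f and 243.5, 214.3 and 249.6 in d/d. Only f/f replicate 3 stood below the others, and the difference of 0.17 ± 0.18 became -0.03 without it. Mbtps2, the protease of the second cleavage, had 63.3 to 88.0 in f/f and 67.2 to 82.9 in d/d, a log2 difference of -0.04 ± 0.17 (95% interval -0.44 to 0.35) and -0.22 without f/f replicate 3. The interval of Mbtps1 was -0.24 to 0.57, so that for all 3 genes it spanned 0.

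Stard4, the sterol carrier, varied more among the f/f arrays than between the genotypes. It read 375.4, 646.3 and 219.1 in f/f and 328.8, 404.9 and 413.8 in d/d. The f/f arrays enclosed the d/d arrays, with replicate 2 highest and replicate 3 lowest of all 6, also on its other 2 probe sets. The log2 difference was 0.03 ± 0.33 (95% interval -0.73 to 0.78, limma with Benjamini-Hochberg adjustment, adjusted p = 0.99). Those probe sets had -0.19 and -0.03. Leaving out f/f replicate 3 turned it to -0.36, and leaving out f/f replicate 2 gave 0.41. Mylip read 227.7, 221.7 and 181.4 in f/f and 224.0, 205.4 and 233.0 in d/d. These groups overlapped, with 0.08 ± 0.13 (95% interval -0.23 to 0.39), and -0.04 without f/f replicate 3.

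**Figure D3:**
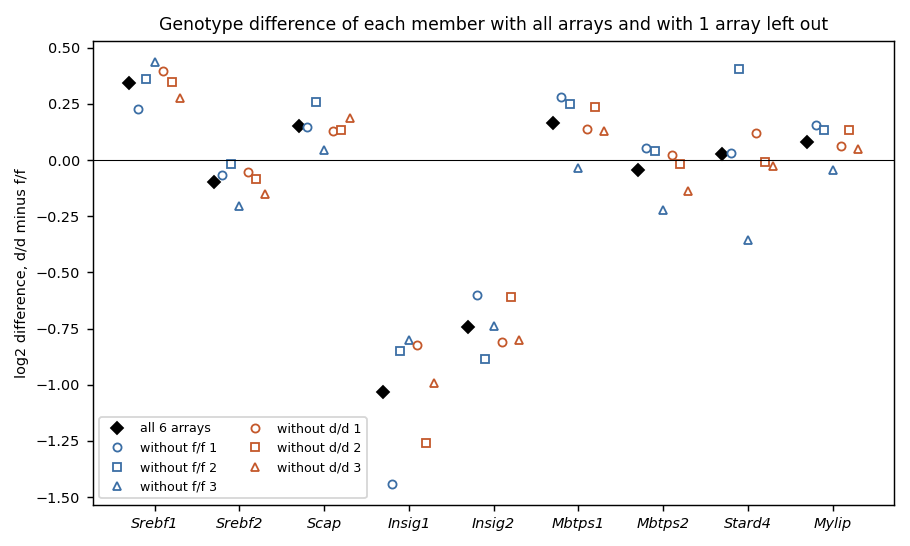
Log2 difference of each member with all 6 arrays (filled diamond) and with each array left out (open points, blue for f/f and orange for d/d). Insig1 and Insig2 stay below 0 and Srebf1 above 0 in all 7 fits, while Stard4 runs from -0.36 to 0.41.

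Target genes of the 2 factors were read from lists of textbook targets. Of 18 SREBP-2 targets tested, 17 lay lower in d/d, with a median of -0.54 where all genes tested had -0.01. Of all genes 53.5% lay lower. By limma 11 of the 18 had an unadjusted p under 0.05, all as lower, where 3.07% of all genes did. With Benjamini-Hochberg adjustment 0 of 18 passed. When f/f replicate 3 was left out 5 passed as lower, namely Hsd17b7, Fdps, Tm7sf2, Hmgcs1 and Idi1 (Idi1 is named for that only). Of all 13718 genes tested, 85 passed in that fit, counted in either direction. The median became -0.71 without that array and -0.30 without f/f replicate 2. The smallest p belonged to Hsd17b7, a late enzyme of cholesterol synthesis, which read 534.8, 692.2 and 493.6 in f/f and 266.8, 316.8 and 334.1 in d/d. Its log2 difference was -0.87 ± 0.15 (adjusted p = 0.109, limma with Benjamini-Hochberg adjustment). Fdps, which makes farnesyl diphosphate, read 638.6, 1265 and 600.3 in f/f and 165.6, 283.5 and 316.5 in d/d, with -1.61 ± 0.31 (adjusted p = 0.142 in that fit). The 15 SREBP-1c targets were split, 8 higher and 7 lower with a median of 0.05 and 0 past the adjusted threshold, and 2 had an unadjusted p under 0.05 as lower: Fads2, the delta-6 desaturase (-0.33 ± 0.11), and Me1, malic enzyme (-0.50 ± 0.19). Next in order of p were Elovl5, a fatty acid elongase (-0.41), Acacb, an acetyl-CoA carboxylase (-0.31), and Scd1, the delta-9 desaturase (0.45). Leaving out f/f replicate 3 turned the median of this list to -0.04.

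Set against the SREBP-2 targets array by array, the members divided. The median target, as a log2 value from its mean over the 6 arrays, stood at 0.24, 0.69 and -0.02 in f/f and -0.39, -0.22 and -0.17 in d/d, and 17 of the 18 targets were highest among f/f arrays in replicate 2. Stard4 had 0.00, 0.75 and -0.79 in f/f and -0.16, 0.09 and 0.12 in d/d, and thus shared the high f/f replicate 2 but not the lower d/d values. Insig1 had -0.30, 0.87 and 0.98 in f/f and -0.92, -0.04 and -0.58 in d/d, and departed from the targets in f/f replicates 1 and 3. Pearson correlations over the 6 arrays with the 18 targets had a median of 0.75 for Srebf2, 0.61 for Insig1, 0.55 for Stard4, 0.52 for Mbtps2, 0.49 for Insig2, 0.13 for Mylip, 0.07 for Mbtps1, 0.04 for Scap and -0.60 for Srebf1. These values describe 6 arrays of 2 genotypes and carry no test.

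**Figure D4:**
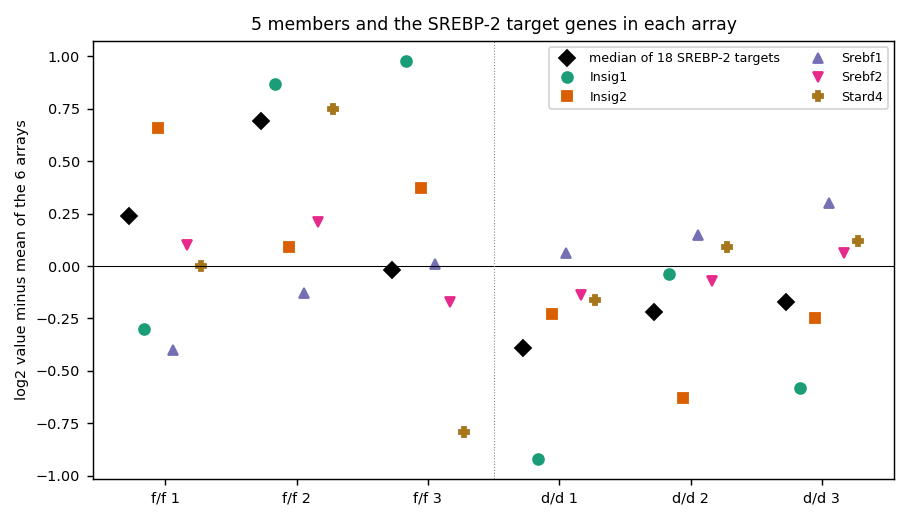
Log2 value minus the mean over the 6 arrays for 5 members and for the median of 18 SREBP-2 targets, in each array. The median target is highest in f/f replicate 2 at 0.69 and negative in all d/d arrays, and Insig2 is positive in all f/f arrays and negative in all d/d arrays.

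Genes that act on the members' proteins were read from further lists. Of 11 genes for degradation of INSIG proteins and other sterol-regulated proteins of the endoplasmic reticulum, 0 passed the adjusted threshold and the median was 0.00. By limma 2 had an unadjusted p under 0.05, both as higher, where 4.77% of all genes did. For 3 the groups did not overlap, all higher in d/d, as for 7.9% of all genes. Erlin1, a membrane scaffold of that process, read 198.0, 233.0 and 202.4 in f/f and 338.0, 342.4 and 317.3 in d/d, with no overlap. Its d/d values were 0.63 ± 0.11 higher on the log2 scale (adjusted p = 0.124, limma with Benjamini-Hochberg adjustment). Erlin1 passed with array weights (adjusted p = 0.0193 by limma), where 215 of all 13718 genes passed, against 13 without weights. Leaving out f/f replicate 3 gave 0 genes of this list past the threshold. Rnf145, a ubiquitin ligase for SCAP, had 0.50 ± 0.22 with an unadjusted p of 0.0488 in limma. It read 121, 115 and 72.0 in f/f, lowest in the divergent f/f replicate 3, and 136, 135 and 170 in d/d. Of the 13 COPII coat and transport genes, which move SCAP with its cargo, 0 had an unadjusted p under 0.05 in limma, and differences lay between -0.28 and 0.20.

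Of the 11 genes for turnover and coactivation of nuclear SREBP, 10 lay higher with a median of 0.08, and 0 passed with adjustment. Of all 13718 genes tested, 6376 lay higher. Gsk3b, a kinase that marks nuclear SREBP for degradation, had 0.36 ± 0.13, and Ep300, an acetyltransferase coactivator, 0.42 ± 0.15 (limma, unadjusted p = 0.0222 and 0.0255). An unadjusted p under 0.05 as higher was found for 4.77% of all genes in limma. Without f/f replicate 3 the median of that list was -0.01. Of the 11 genes of insulin and mTORC1 signalling, 10 lay higher, where 6376 of all 13718 genes did. Their median was 0.06, and 0.03 without f/f replicate 3. Irs1 and Insr, an insulin receptor substrate and the receptor, had 0.46 ± 0.16 and 0.32 ± 0.11, and Irs2 -0.28 ± 0.10, each with groups that did not overlap, as for 14.7% of all genes, and none past the adjusted threshold.

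The LXR and IDOL list, in which Mylip acts, had a median of 0.00 over 11 genes. Abca1, the LXR target that exports cholesterol, lay higher in d/d by 0.63 ± 0.11, where Mylip had 0.08. Abca1 did not pass (limma with Benjamini-Hochberg adjustment, adjusted p = 0.121). It did so with array weights (adjusted p = 0.0193 by limma), where 215 of all 13718 genes passed, against 13 without weights. Leaving out f/f replicate 3 gave 0 genes of this list past the threshold. Abca1 read 777.6, 916.4 and 765.8 in f/f and 1271, 1289 and 1205 in d/d, with no overlap. The 13 other sterol transfer genes, relatives and neighbours in function of Stard4, had a median of 0.04 and 0 with an unadjusted p under 0.05 in limma, and the smallest p was that of Stard5 at -0.20 ± 0.10. Some listed genes were not analysed here, and Lrp8 was below the dim limit.

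**Figure D5:**
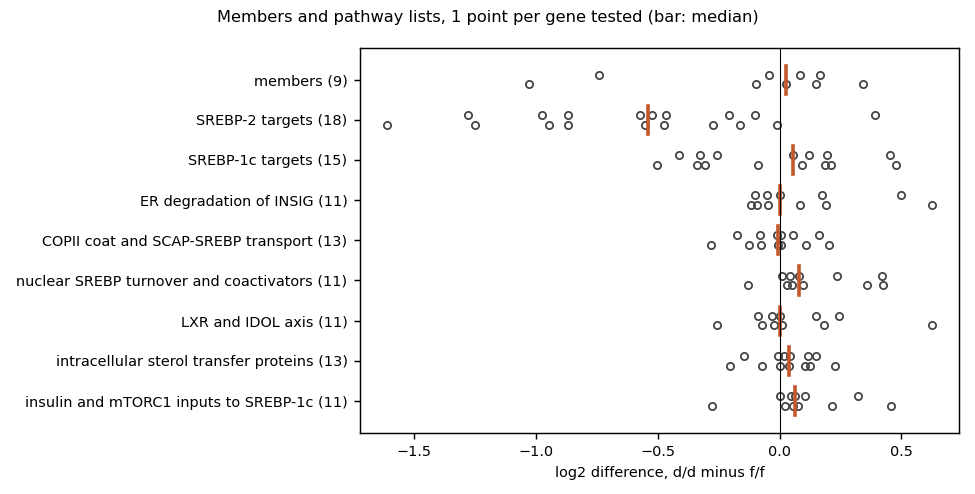
Log2 difference (d/d minus f/f) of the 9 members and of the genes tested in 8 pathway lists, 1 point per gene, with the median of each list as a bar. The SREBP-2 targets have a median of -0.54, and the medians of the other lists and of the members lie between -0.01 and 0.08.

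The genes most like each member were those with the highest Pearson r of log2 values over the 6 arrays. For Stard4 these were Fdft1, the squalene synthase gene and an SREBP-2 target, at 0.992, Nbn at 0.99 and Eny2 at 0.989. Their differences lay from -0.01 to 0.03, and a likeness to Stard4 in this follows largely from the choice by r. For Insig1 they were Psip1, Tap2 and Klhl9, at 0.984, 0.982 and 0.979. Those of Insig2 were Cd300ld, Arhgef7 and Psmc2, at 0.996, 0.994 and 0.993. Srebf1 was closest to Plekhf1 and Bst2, both at 0.987, and Ptgr1 at 0.98, and Srebf2 to Zfp770 at 0.991 and Mtus1 and Cdkn2aip, both at 0.989. Scap was nearest Dpp4, Avpi1 and Hnrnpu at 0.997, 0.99 and 0.983. Mbtps1 was closest to Arpc1a, Rnf44 and Zfp395 at 0.997, 0.996 and 0.996, Mbtps2 to Pwwp3a, Cyp20a1 and Plgrkt at 0.995, 0.995 and 0.994, and Mylip to Lpar6, Tmem140 and Nsun4 at 0.998, 0.998 and 0.997. High values are common over 6 arrays: an r of at least 0.9 was reached by 40 genes for Srebf1, 141 for Insig1, 211 for Stard4 and 1165 for Mbtps1, which shares a low f/f replicate 3 with Mylip.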

How the data were processed

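Total liver RNA from 6 samples was labelled with biotin for Affymetrix arrays (per the labels' protocols). For 45101 probe sets the authors deposited intensities on a linear scale. No label or header states how these were summarized or scaled. The platform annotation gave 34945 probe sets 1 symbol, 932 several and 9160 none, besides 64 controls, and the Entrez number of 34741 of the first was found in the reference gene table (GRCm38.p6).

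Array medians of log2(intensity + 16) differed by 0.185, and arrays were quantile normalized. The brightest single-symbol probe set stood for a gene, and the dimmest 40% of probe sets (a mean log2 value under 6.01, or an intensity of 48.3) were dropped, leaving 13718 genes. A second fit took all 34945 probe sets. The 2 genotypes were tested in limma 3.58.1 (lmFit, eBayes; R 4.3.3; prior and residual degrees of freedom 4.19 and 4), with Benjamini-Hochberg adjustment over all features. The test was checked on simulated data with independent noise and no divergent array. How often that check found changes as small as those of the members is not reported here. Figures used matplotlib 3.10.9 and tables pandas 2.3.3 in Python 3.11.15. Promoter sequences are from RefSeq.

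Members, lists, tests and alternatives were chosen with earlier results of these data known. Named were Errfi1, the members, at most 6 genes of a pathway list in order of p, the 3 genes most correlated with each member and the most abundant marker of a cell type list with a median beyond 0.2. Replicate numbers were not taken to pair samples, as no label says that they do. Deviations of same-numbered arrays correlated at -0.0033, -0.144 and -0.465. These few correlations, 1 of them with the divergent f/f replicate 3, cannot decide whether samples were paired. Alternatives were scaling (none, common median), pseudocount (1, 64), dim filter (none, lowest 60%), mean of all probe sets, trended robust eBayes, array weights, the replicate block and each array left out. Outliers were not tested, as groups held 3 arrays.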

Additional observations from a re-analysis of the deposited data

How the results depend on the processing

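Over 16 alternatives 0 of the 9 members passed in limma with Benjamini-Hochberg adjustment, and Insig1, Insig2, Srebf1, Srebf2 and Scap had the same sign throughout. The number of genes past the threshold was 20 with the mean of all probe sets, 21 with the trended eBayes, 215 with array weights and 6 with the replicate block, and 4 to 85 with 1 array left out, against 13. For all probe sets, against 26, it was 12 with a pseudocount of 1, 208 with array weights and 13 with the replicate block, and 10 to 137 with 1 array left out. Array weights (0.178 for f/f replicate 3) called 10 SREBP-2 targets, 1 gene of the ER degradation list and 1 of the LXR list, turned the median of the SREBP-1c targets to -0.115, and gave -0.343 for Stard4, -0.0228 for Mylip and -0.0163 and -0.00767 for the dimmer probe sets of Mbtps1. Averaged over its probe sets Stard4 had -0.0608.

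With 1 array left out, 0 to 5 SREBP-2 targets passed, and the median of the insulin and mTORC1 list ran from 0.0287 to 0.118. Differences ran from -0.358 to 0.405 for Stard4 (-0.695 to 0.222 and -0.419 to 0.351 on its other probe sets), -0.0345 to 0.28 for Mbtps1 (-0.0371 to 0.309 and -0.0355 to 0.175), -0.224 to 0.0539 for Mbtps2 and -0.0422 to 0.154 for Mylip. The shift of Insig1 minus Insig2 ran from -0.839 to 0.0392. The replicate number as a block changed no call of a member: Insig2 had an adjusted p of 0.289 and Insig1 of 0.338 (limma with Benjamini-Hochberg adjustment). The causes of these changes were not tested, and 3 arrays per group limit the precision.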
